A study of Mus musculus with 2 samples.

Results

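The 10 genes described here encode receptors with which macrophages take up dying cells and altered proteins, and 1 ligand that bridges such receptors to their cargo. They were chosen by symbol (*Gas6*, *Axl*, *Mertk*, *Timd4*, *Stab1*, *Msr1*, *Marco*, *Cd163*, *Lyve1* and *Lrp1*), and all 10 were found among the 27809 genes of the matrix. The RNA of single CD45+ cells from the heart was sequenced, in male mice aged 8 weeks according to the methods of the study. The strain is labelled C57BL/6N, and the methods give the CD3ϵ-/- mice a C57BL/6 background. The study asked how T cells affect macrophages when the heart is loaded by transverse aortic constriction (TAC), in which a suture narrows the aorta. The groups were WT mice after a sham operation, CD3ϵ-/- mice, which lack T cells, after sham, WT mice after TAC, CD3ϵ-/- mice after TAC, and WT mice after TAC that received an antibody to CD8 and are labelled as depleted of CD8+T cells (called anti-CD8 TAC here). All hearts were taken 1 week after surgery. Rows of 5 values keep to this order. Each group was 1 hashtag within 1 pooled library, and the number of hearts behind a hashtag is not given in the sources used here. There were thus no replicates, no test was possible, and all intervals cover counting error only.

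Efferocytosis is the uptake of dying cells. Macrophages recognise phosphatidylserine on the surface of these cells either directly, as TIM-4 (*Timd4*) and stabilin-1 (*Stab1*) do, or through the bridging protein GAS6, which binds the receptor tyrosine kinases AXL and MERTK. The scavenger receptors MSR1 and MARCO bind modified lipoproteins and microbes, CD163 takes up haemoglobin bound to haptoglobin, LYVE1 binds hyaluronan, and LRP1 is a large endocytic receptor with many ligands. In the mouse heart, LYVE1, TIM-4 and FOLR2 are known as marks of resident macrophages, whereas CCR2 and Ly6C mark cells that derive from blood monocytes.

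Cells with at least 100 reads per 1000000 reads (CPM) of *Csf1r* and 1000 CPM of *Lyz2* were taken as monocytes and macrophages, and they were 3702 of the 5263 cells kept. They were parted in turn by *Saa3* (1000 CPM), *Ly6c2* (500 CPM), *Folr2* (200 CPM), *Cd209a* (200 CPM), *Ccr2* (1000 CPM) and *Lilra5* (100 CPM), and 818 cells that passed none of these limits are called the remaining class. *Flt3* and *Clec10a*, known from dendritic cells, were highest in the *Cd209a*-gated class (70.2 and 213 CPM), which may therefore hold such cells. This class counts in all group levels, with 16.5% of the reads of CD3ϵ-/- sham and 1.46% of those of CD3ϵ-/- TAC. The groups held 622, 528, 1192, 700 and 660 monocytes and macrophages, with a median of 78596 to 129434 reads per cell. *Cd3g*, 1 of the genes that mark T cells, was 45.6, 0.555, 17.5, 0.0661 and 22.5 CPM over all kept cells, which sets the CD3ϵ-/- groups apart. *Cd3e*, the gene named in the genotype, parted the groups less, at 17.8, 3.73, 10.8, 5.64 and 13.6 CPM. It was read in 69, 42, 103, 83 and 51 kept cells, so reads of it were also present in the CD3ϵ-/- groups. *Cd8a* was read in 16 of 1615 kept cells of WT TAC and in 8 of 894 of anti-CD8 TAC, and *Cd8b1* in 12 and 6. In CD3ϵ-/- sham and CD3ϵ-/- TAC, *Cd8a* was read in 2 of 835 and 4 of 919 kept cells, and *Cd8b1* in 0. Reads of these genes therefore did not set anti-CD8 TAC apart from WT TAC, and they rest on few cells. Whether CD8+T cells were lost in anti-CD8 TAC was not tested here. The study itself counted CD4+ and CD8+T cells of the heart by flow cytometry, a measure of protein and not of RNA. The matrix counts reads and not molecules, and reads were not divided by gene length, so levels are compared within a gene and not between genes.

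The promoters of 8 of the 10 genes were found in the RefSeq sequences of the build GRCm38.p6, each from 250 bases before to 50 bases after a start position. For *Axl*, *Stab1*, *Timd4* and *Cd163* this position lay inside the annotated gene and not at its outer end. The promoters of *Stab1*, *Timd4* and *Cd163* are shown because the levels of these genes differed widely between the gated classes. That of *Lrp1* is shown because it was read in most cells of every class. Capitals mark the letters TGCTGA, which are known from sites of MAF proteins, and GAGGAA, known from sites of PU.1, on either strand, and the letters of these motifs do not overlap here.
Stab1 promoter, chr14:31168592-31168891, minus strand: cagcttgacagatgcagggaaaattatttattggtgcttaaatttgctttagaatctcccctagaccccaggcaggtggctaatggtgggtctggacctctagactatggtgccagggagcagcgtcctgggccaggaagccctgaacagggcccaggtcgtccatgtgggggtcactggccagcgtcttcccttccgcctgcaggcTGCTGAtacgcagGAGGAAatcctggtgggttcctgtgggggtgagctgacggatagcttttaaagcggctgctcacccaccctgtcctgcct
Timd4 promoter, chr11:46810549-46810848, plus strand: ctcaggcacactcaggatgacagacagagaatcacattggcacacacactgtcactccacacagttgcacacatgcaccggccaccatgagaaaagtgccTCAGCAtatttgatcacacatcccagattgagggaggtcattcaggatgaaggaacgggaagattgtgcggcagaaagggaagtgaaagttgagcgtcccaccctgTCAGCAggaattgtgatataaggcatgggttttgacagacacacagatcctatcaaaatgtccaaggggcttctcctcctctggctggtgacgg
Cd163 promoter, chr6:124304401-124304700, plus strand: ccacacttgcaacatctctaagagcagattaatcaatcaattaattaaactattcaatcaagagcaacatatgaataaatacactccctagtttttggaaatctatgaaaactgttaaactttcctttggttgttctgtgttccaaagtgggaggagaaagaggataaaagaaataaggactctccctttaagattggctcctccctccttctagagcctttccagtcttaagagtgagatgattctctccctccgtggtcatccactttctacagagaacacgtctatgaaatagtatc
Lrp1 promoter, chr10:127621099-127621398, minus strand: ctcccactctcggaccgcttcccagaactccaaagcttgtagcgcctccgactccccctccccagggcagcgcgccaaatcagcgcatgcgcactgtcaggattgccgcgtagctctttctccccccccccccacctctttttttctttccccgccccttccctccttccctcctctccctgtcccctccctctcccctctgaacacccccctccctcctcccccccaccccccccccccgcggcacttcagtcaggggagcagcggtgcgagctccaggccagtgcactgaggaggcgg

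TGCTGA was present in 2 of the 8 promoters (*Stab1* and *Timd4*, the latter with 2 matches), and in 19.5% of the 32851 promoters of this length. GAGGAA was present in 3 of the 8 (*Stab1*, *Axl* and *Marco*), and in 28.3% of all. The E box CACGTG and the DR4 motif of LXR were found in none of the 8, and in 7.15% and 0.0152% of all. The *Lrp1* promoter held 16 CG pairs, those of *Gas6* and *Mertk* 17 and 14, those of *Stab1*, *Axl*, *Timd4* and *Cd163* 7, 6, 5 and 2, and that of *Marco* 0, beside a median of 7 over all promoters. A match is a description of the letters in the window and not a site of binding.

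*Gas6* separated the classes sharply. Its level, as the mean over the groups with at least 20 cells of a class, was 483 CPM in the *Folr2*-gated class, 197 CPM in the *Lilra5*-gated class, 115 CPM in the remaining class, 24.2 CPM in both the *Ccr2*- and the *Saa3*-gated class, and 7.81 CPM in the *Ly6c2*-gated class. With each cell thinned to 30000 reads, 78.3% of *Folr2*-gated cells (95% exact interval 73.8% to 82.3%, 303 of 387 cells) and 2.74% of *Ly6c2*-gated cells had a *Gas6* read. B cells, gated on *Cd79a* and *Ms4a1*, served as background, and 0 of 329 thinned B cells had a *Gas6* read (exact upper limit 1.11%). The lowest *Folr2*-gated group, CD3ϵ-/- TAC at 334 CPM, was above the highest *Lilra5*-gated group, anti-CD8 TAC at 244 CPM, so the groups of these classes did not overlap.

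Over all monocytes and macrophages *Gas6* was 149, 81.1, 96.6, 76.0 and 103 CPM. WT sham was the highest group and CD3ϵ-/- TAC the lowest. The log2 ratio of WT TAC to WT sham was -0.62 (95% counting interval -0.66 to -0.58), and it was -0.03 when the levels within the classes of WT TAC were weighted by the reads of the classes in WT sham. The difference between the WT groups in this gene therefore stood beside a difference in their mix of classes. In sums over a group, fewer cells of a type and less RNA per cell cannot be told apart, and the weighted ratio is given for this reason.

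*Axl* showed another pattern than its ligand. Its level was highest in the *Lilra5*-gated class (349 CPM), next in the *Ccr2*-gated (303 CPM) and the remaining class (270 CPM), 201 CPM in the *Folr2*-gated class and lowest in the *Saa3*-gated class (87.7 CPM). The *Ccr2*-gated cells, which made little *Gas6* RNA, had an *Axl* read in 68.3% of thinned cells. Across all thinned monocytes and macrophages *Axl* was read in 61.7% of the cells with a *Gas6* read and in 59.8% of those without. Within the *Folr2*-gated class, *Axl* was read less often with *Gas6* (50.2%) than without (64.3%). By group *Axl* was 281, 273, 257, 220 and 251 CPM, the narrowest range beside that of *Lrp1*, with no ratio past 2-fold.

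*Mertk*, the other GAS6 receptor, followed the order of *Gas6* over the classes, except in the *Saa3*-gated class. It was 76.2 CPM in the *Folr2*-gated, 73.7 CPM in the *Saa3*-gated, 66.6 CPM in the *Lilra5*-gated, 52.4 CPM in the remaining, 25.7 CPM in the *Ccr2*-gated and 13.3 CPM in the *Ly6c2*-gated class. The first 3 of these lay within the range of the *Folr2*-gated class over groups, 60.4 to 91.2 CPM. In the *Saa3*-gated class, where *Gas6* was 24.2 CPM, 71.9% of thinned cells had a *Mertk* read, against 39.0% in the *Folr2*-gated class. A *Mertk* read was found in 38.5% of thinned cells with *Gas6* and in 17.5% of those without, but within the *Folr2*-gated class the shares were 39.9% and 35.7%. Both shares thus lay close together once the class was held the same.

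The level of *Mertk* by group was 46.0, 21.3, 40.5, 40.7 and 41.0 CPM. CD3ϵ-/- sham stood alone as the low group, while the counting intervals of the 3 TAC groups overlapped (39.5 to 42.4 CPM in all). The share of thinned cells with a *Mertk* read was 15.2% in CD3ϵ-/- sham (12.2% to 18.6%) and 23.4% to 24.8% in the other groups. CD3ϵ-/- sham was lower than WT sham in the *Ccr2*-gated (12.1 against 31.2 CPM), *Lilra5*-gated (47.0 against 75.5 CPM) and remaining class (18.3 against 48.9 CPM), but not in the *Folr2*-gated class (91.2 against 84.6 CPM, where 1 cell held 53.1% of the reads of CD3ϵ-/- sham).

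*Timd4* was read in few cells, 43, 16, 30, 27 and 23 in the 5 groups. Its level was 193 CPM in the *Saa3*-gated class and 78.7 CPM in the *Folr2*-gated class, and at most 3.10 CPM in each other class. In the *Folr2*-gated class *Timd4* was read in 40.9% of the thinned cells with a *Lyve1* read (67 of 164) and in 9.87% of those without. This held in each group, from 35.6% against 10.4% in WT TAC to 52.4% against 6.38% in anti-CD8 TAC. Of the *Folr2*-gated cells with *Timd4*, 75.3% also had *Lyve1*. Over all thinned monocytes and macrophages this share was 56.3% (76 of 135 cells), and in CD3ϵ-/- TAC it was 25.9% (7 of 27). None of the 16 thinned *Saa3*-gated cells with *Timd4* had a *Lyve1* read.

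By group *Timd4* was 18.5, 8.21, 5.17, 21.3 and 10.8 CPM in summed reads, and 19.0, 8.18, 6.12, 9.20 and 10.7 CPM as the mean over cells. CD3ϵ-/- TAC was the highest group by the first measure and only in the middle by the second. In that group 73.4% of the *Timd4* reads came from the 24 *Saa3*-gated cells and 20.9% from the *Folr2*-gated class, whereas the *Folr2*-gated class held 89.8% of the reads in WT sham and 90.4% in WT TAC. Within the *Folr2*-gated class *Timd4* was 111, 101, 51.5, 43.0 and 87.3 CPM, so there CD3ϵ-/- TAC was the lowest group.

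*Stab1* fell off in steps from class to class. It was 1331 CPM in the *Folr2*-gated, 899 CPM in the *Lilra5*-gated, 465 CPM in the remaining, 164 CPM in the *Ccr2*-gated, 83.8 CPM in the *Ly6c2*-gated and 49.2 CPM in the *Cd209a*-gated class. In the same order of classes 94.8%, 84.5%, 66.4%, 39.1%, 28.5% and 13.4% of thinned cells had a read. *Stab1* was the member read in the largest share of *Folr2*-gated cells, and in B cells it was read in 3 of 329.

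Over all monocytes and macrophages *Stab1* was 527, 256, 424, 315 and 452 CPM. Both CD3ϵ-/- groups were below all 3 WT groups, also as the mean over cells (372 and 402 against 558 to 679 CPM). Within the *Folr2*-gated class the CD3ϵ-/- groups were again the lowest, at 1040 and 921 CPM against 1615, 1489 and 1591 CPM, although the share of cells with a read was not lower there after TAC (100% of 57 thinned cells in CD3ϵ-/- TAC and 95.9% of 122 in WT TAC). Both CD3ϵ-/- groups were also below the WT groups in the *Lilra5*-gated class (638 and 821 against 867, 984 and 1185 CPM) and the remaining class (323 and 435 against 482, 539 and 545 CPM), but there CD3ϵ-/- sham and not CD3ϵ-/- TAC was the lowest. This did not hold in the *Ccr2*-gated class, where CD3ϵ-/- TAC (196 CPM) was above WT sham (116 CPM), nor in the *Ly6c2*-gated class, where WT sham (34.1 CPM) was below both CD3ϵ-/- groups (52.2 and 79.9 CPM).

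**Figure D1:**
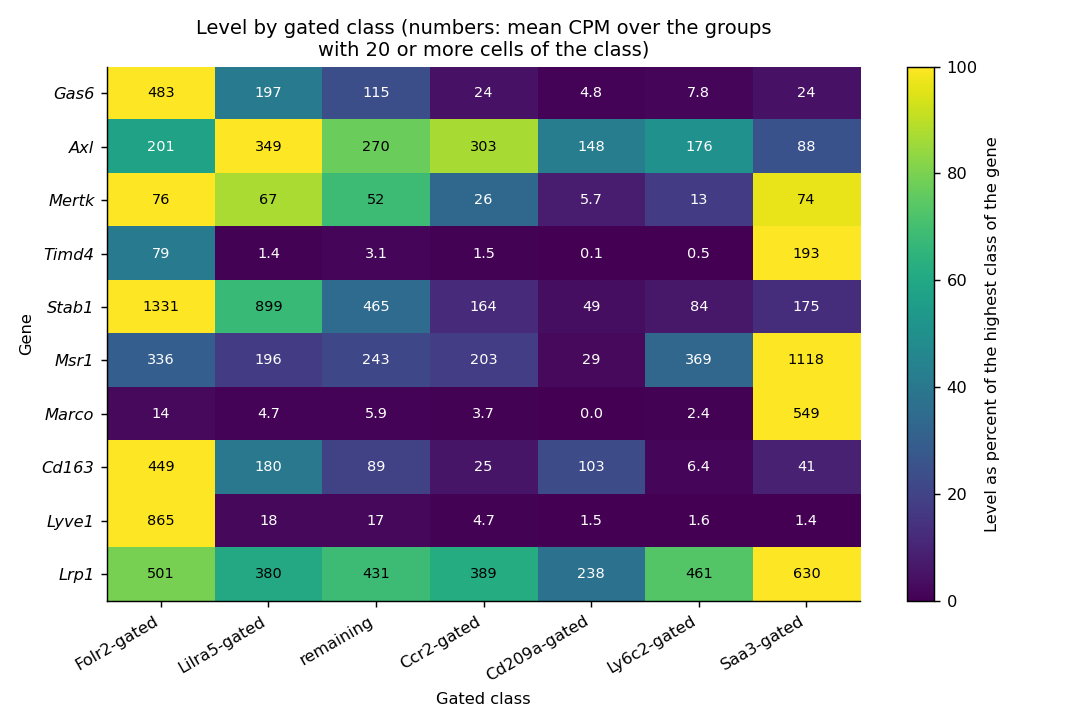
Level of each gene (rows) in each gated class of monocytes and macrophages (columns). The number in a field is the mean CPM over the groups with at least 20 cells of the class, and the colour gives it as a percentage of the highest class of the gene. *Gas6*, *Mertk*, *Stab1*, *Cd163* and *Lyve1* are highest in the *Folr2*-gated class, and *Axl* in the *Lilra5*-gated class. *Timd4*, *Msr1*, *Marco* and *Lrp1* are highest in the *Saa3*-gated class, which had at least 20 cells in CD3ϵ-/- TAC alone. Within CD3ϵ-/- TAC, *Lrp1* was higher in the *Folr2*-gated than in the *Saa3*-gated class (656 against 630 CPM), and *Mertk* was lower (64.0 against 73.7 CPM).

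*Msr1* was read at a high level in monocytes as well as in macrophages. It was 1118 CPM in the *Saa3*-gated, 369 CPM in the *Ly6c2*-gated, 336 CPM in the *Folr2*-gated, 243 CPM in the remaining, 203 CPM in the *Ccr2*-gated, 196 CPM in the *Lilra5*-gated and 28.9 CPM in the *Cd209a*-gated class. By group its level was 163, 151, 281, 407 and 285 CPM, with the TAC groups above both sham groups. The share of thinned cells with an *Msr1* read was 40.0% (36.0% to 44.0%), 37.9% (33.6% to 42.3%), 52.5% (49.5% to 55.4%), 67.4% (63.7% to 70.9%) and 58.6% (54.7% to 62.5%).

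WT TAC and anti-CD8 TAC could not be parted in the level of *Msr1* (log2 ratio 0.02, interval -0.00421 to 0.04). In the *Ccr2*-gated class, the largest, *Msr1* was 114, 158, 233, 280 and 227 CPM, and 29.2%, 38.6%, 47.3%, 63.5% and 49.7% of thinned cells had a read. Within the *Folr2*-gated class it was 251, 194, 290, 617 and 328 CPM, with CD3ϵ-/- TAC apart from the other groups. There 84.2% of thinned cells had an *Msr1* read in CD3ϵ-/- TAC (72.1% to 92.5%) and 59.0% in WT TAC (49.7% to 67.8%).

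*Marco*, the other class A scavenger receptor, was read in 1, 4, 8, 19 and 3 cells. Its level was 549 CPM in the *Saa3*-gated class of CD3ϵ-/- TAC, where 13 of 24 cells had a read, and at most 23.0 CPM in any group of the *Folr2*-gated class, the next in order. By group it was 3.60, 1.92, 5.36, 50.2 and 7.08 CPM, and 88.8% of the reads of CD3ϵ-/- TAC lay in the *Saa3*-gated class and 60.7% in 1 cell. The mean over cells was 16.1 CPM in CD3ϵ-/- TAC and at most 4.72 CPM in the other groups, so CD3ϵ-/- TAC was the highest group by both measures. Among the thinned *Saa3*-gated cells of all groups, 11 of the 14 with *Marco* also had *Timd4*.

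The *Saa3*-gated class held 2, 24 and 6 cells in WT TAC, CD3ϵ-/- TAC and anti-CD8 TAC. In the sham groups it held 0 of 622 and 0 of 528 cells (exact upper limits 0.591% and 0.696%). It is described apart because it differs from the other classes in genes that the gate did not use. *Prg4*, *Icam2* and *Gata6*, known from macrophages of the body cavities, were 1916, 225 and 26.7 CPM in it, and at most 12.8, 20.8 and 1.64 CPM in each other class of monocytes and macrophages. The summed level of these genes and *Saa3*, the gene of the gate, over all monocytes and macrophages was 20.9, 21.9, 30.9, 1302 and 219 CPM. Like *Marco* and *Timd4* it was highest in CD3ϵ-/- TAC, but *Timd4* was next highest in WT sham, where the sum was lowest. *Lyve1* was nearly absent from this class (1.42 CPM), and *Gas6* was low (24.2 CPM, read in 15.6% of thinned cells). The mean levels of *Msr1*, *Marco*, *Timd4* and *Lrp1* were highest in this class, but its levels came from CD3ϵ-/- TAC alone. Within that group *Lrp1* was higher in the *Folr2*-gated class (656 against 630 CPM). Its cells were deep, with a median of 258110 reads, and the summed B cell markers were 4.16 CPM in the cells of CD3ϵ-/- TAC. Whether the class lay in the heart muscle or outside it was not tested.

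*Cd163* was 449 CPM in the *Folr2*-gated class, 180 CPM in the *Lilra5*-gated class, 103 CPM in the *Cd209a*-gated class, 88.7 CPM in the remaining, 40.8 CPM in the *Saa3*-gated and 25.2 CPM in the *Ccr2*-gated class. *Ly6c2*-gated cells had 6.41 CPM, and 1.83% of them had a read after thinning. Over all monocytes and macrophages *Cd163* was 244, 93.8, 57.4, 34.1 and 93.3 CPM. WT sham had by far the highest level, CD3ϵ-/- TAC the lowest, and the intervals of CD3ϵ-/- sham (91.5 to 96.2 CPM) and anti-CD8 TAC (91.2 to 95.4 CPM) overlapped.

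The share of thinned cells with a *Cd163* read followed the same order, at 35.2%, 22.7%, 12.7%, 9.40% and 17.1%. Within the *Folr2*-gated class *Cd163* was 856, 474, 341, 127 and 446 CPM, and 74.5%, 55.3%, 51.6%, 36.8% and 54.4% of thinned cells had a read. The *Ccr2*-gated class gave 61.0, 35.0, 13.9, 3.64 and 12.6 CPM. The *Lilra5*-gated class differed less, with 240, 157, 146, 112 and 244 CPM, and there anti-CD8 TAC was level with WT sham.

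*Lyve1* was the member most bound to 1 class. It was 865 CPM in the *Folr2*-gated class and at most 17.6 CPM in each other class, and the *Folr2*-gated class held 90.1% to 96.3% of its reads in each group. *Lyve1* is also a marker of lymphatic endothelium, and of the other genes of that list *Prox1*, *Flt4* and *Ccl21a* were 1.29, 0 and 0.216 CPM in the *Folr2*-gated class, while *Pdpn* was 20.9 CPM. Only part of the class carried it, since 42.4% of thinned *Folr2*-gated cells had a *Lyve1* read.

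The level of *Lyve1* by group was 156, 98.7, 48.9, 76.8 and 75.7 CPM in summed reads. A few deep cells bore much of this in CD3ϵ-/- TAC, where 5 cells held 89.5% of the reads and 1 cell 39.6%. As the mean over cells the levels were 165, 110, 57.9, 30.9 and 80.3 CPM, which made CD3ϵ-/- TAC the lowest group. The share of thinned cells with a read was 12.8% (10.2% to 15.8%), 6.71% (4.69% to 9.25%), 4.57% (3.44% to 5.94%), 2.94% (1.80% to 4.50%) and 5.13% (3.56% to 7.13%), and within the *Folr2*-gated class 57.8%, 65.8%, 36.9%, 24.6% and 30.9%. In both shares the sham groups were above the TAC groups, and CD3ϵ-/- TAC was the lowest.

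**Figure D2:**
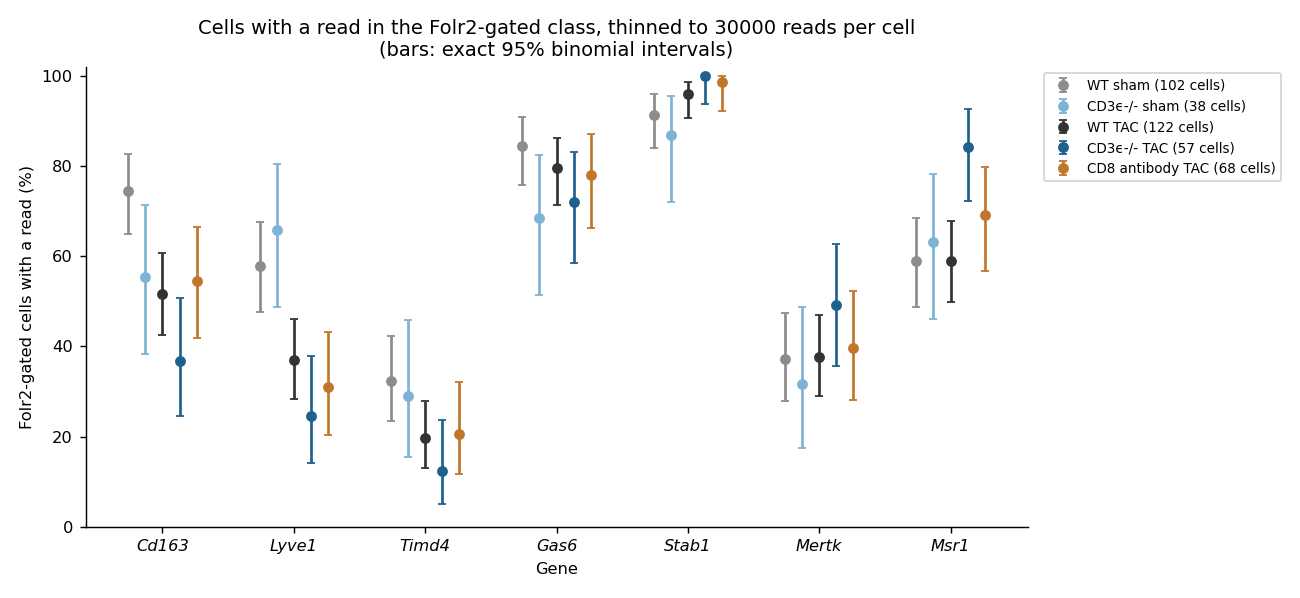
Share of *Folr2*-gated cells with at least 1 read of the gene (y axis, percent) in each of the 5 groups after each cell was thinned to 30000 reads. Points are shares and bars exact 95% binomial intervals for counting error. For *Cd163* the share is 74.5% in WT sham and 36.8% in CD3ϵ-/- TAC, and for *Lyve1* it is 57.8% and 65.8% in the sham groups and 24.6% to 36.9% in the TAC groups.

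*Lrp1* was the broadest member. It was 630 CPM in the *Saa3*-gated class, 501 CPM in the *Folr2*-gated class and 238 to 461 CPM in the other classes, and 78.6% to 100% of thinned cells of each class had a read. B cells had an *Lrp1* read in 11.9% of thinned cells (8.57% to 15.8%), above the 0.912% or less of the other members. By group *Lrp1* was 381, 363, 413, 464 and 396 CPM, and within the *Folr2*-gated class it was 381, 540, 446, 656 and 483 CPM. CD3ϵ-/- TAC was thus the highest group in both. The 630 CPM of the *Saa3*-gated class came from CD3ϵ-/- TAC alone, where the *Folr2*-gated class was higher (656 CPM).

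Among CD45+ cells outside the gate of monocytes and macrophages, 39 cells with at least 200 CPM of *Col1a1*, the main collagen gene of fibroblasts, had 305 CPM of *Gas6*, 535 CPM of *Axl* and 1175 CPM of *Lrp1*. A read after thinning was found in 73.7%, 81.6% and 97.4% of these cells. The other 7 members were at most 3.96 CPM there. The ligand *Gas6* was therefore also read in stromal cells left among the CD45+ cells, which carried its receptor *Axl* as well, while 1 of 38 thinned cells had a *Mertk* read.

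A *Folr2*-gated cell carried several members at once. After thinning, the mean number of members with a read was 5.38 per cell in the *Folr2*-gated class, 4.81 in the *Saa3*-gated, 3.90 in the *Lilra5*-gated, 3.34 in the remaining, 2.79 in the *Ccr2*-gated, 2.56 in the *Ly6c2*-gated and 2.07 in the *Cd209a*-gated class, and 0.152 in B cells. At least 5 members were read in 71.3% of *Folr2*-gated and 5.30% of *Ly6c2*-gated cells. The share of monocytes and macrophages in the *Folr2*-gated class was 16.9% (14.0% to 20.1%), 7.39% (5.30% to 9.96%), 10.7% (8.96% to 12.5%), 8.29% (6.35% to 10.6%) and 10.6% (8.36% to 13.2%), so WT sham was above every other group by more than the counting intervals.

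Some genes outside the list had profiles close to those of the members over 30 profiles of class and group, which share the library and the gates. The nearest was *Selenop* for *Stab1* (Pearson's r = 0.97 of log2(CPM + 10)) and for *Mertk* (r = 0.94), *Slc9a9* for *Gas6* (r = 0.96), *Folr2* for *Timd4* (r = 0.91) and *Lyve1* (r = 0.91), *Arsb* for *Cd163* (r = 0.91), *Tmem165* for *Lrp1* (r = 0.91), *Ctsl* for *Msr1* (r = 0.89), *Cd5l* for *Marco* (r = 0.87) and *Asb2* for *Axl* (r = 0.76). *Folr2* was used for a gate, so its place is no finding. Among the members themselves *Stab1* and *Gas6* were closest (r = 0.90), followed by *Stab1* and *Mertk* (r = 0.89).

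The question of the first comparison was what TAC does to these genes in WT mice. *Cd163*, *Timd4* and *Lyve1* were lower in WT TAC than in WT sham, and *Msr1* was higher, by 1.73-fold. Of 9 members with at least 10 CPM in either group, 3 were past 2-fold, all lower, beside 3.61% of the 9228 genes tested. The log2 ratio was -2.09 (-2.13 to -2.05) for *Cd163*, -1.84 (-1.97 to -1.71) for *Timd4* and -1.68 (-1.72 to -1.63) for *Lyve1*. The median of the 9 members was -0.31, and that of all genes 0.03. At the mix of classes of WT sham, the ratios were -1.43, -1.17 and -0.98, so differences within classes remained for all 3, while *Stab1* went from -0.31 to 0.14.

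Genes that respond to the dissociation of tissue were higher in the sham groups, and the reason was not tested. The summed level of 7 such genes (*Fos*, *Jun*, *Egr1*, *Atf3*, *Dusp1*, *Hspa1a* and *Hspa1b*) was 12470, 10482, 6369, 5500 and 6268 CPM in monocytes and macrophages. In cells with less than 5000 CPM of these genes *Cd163* was 264 CPM in WT sham and 79.4 CPM in WT TAC (log2 ratio -1.73), *Lyve1* was 242 and 71.1 CPM (-1.76), and *Timd4* was 21.1 and 7.53 CPM (-1.48). The differences were thus also present in these cells.

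In CD3ϵ-/- mice the same comparison gave 4 of 10 members past 2-fold, beside 5.86% of the 9105 genes tested. *Msr1* was higher in CD3ϵ-/- TAC (log2 ratio 1.43, 1.40 to 1.46), *Cd163* was lower (-1.46, -1.52 to -1.40), and *Marco* (4.71) and *Timd4* (1.37) were higher. The median of the 10 was 0.33, against 0.06 for all genes. Without the *Saa3*-gated class *Timd4* turned to -0.42 and *Marco*, then at 6.12 CPM, was under the 10 CPM needed to be counted, whereas *Msr1* and *Cd163* were still past 2-fold. At the mix of classes of CD3ϵ-/- sham, *Cd163* was at -1.46, and *Msr1* was at 0.82, no longer past 2-fold. *Marco* was at 0.43 and *Timd4* at -1.18, with levels under the 10 CPM needed to be counted. CD3ϵ-/- sham had 0 *Saa3*-gated cells, so this mix gives the class no weight. The values of *Marco* and *Timd4* at this mix thus leave that class out by construction. *Lyve1* was at -0.36 in summed reads and at -1.83 as the mean over cells, and at 0.64 in cells with less than 5000 CPM of dissociation genes. *Mertk* was 1.91-fold higher (log2 ratio 0.93, 0.85 to 1.02) and 0.70 at the mix of classes of CD3ϵ-/- sham, from the low level of that group.

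The sham groups of the 2 genotypes were compared to see how the absence of T cells goes with these genes in the unloaded heart. *Cd163*, *Timd4*, *Mertk* and *Stab1* were lower in CD3ϵ-/- sham than in WT sham, by 4 of 9 members past 2-fold, beside 2.33% of the 9142 genes tested. Their log2 ratios were -1.38 (-1.42 to -1.34), -1.17 (-1.32 to -1.02), -1.11 (-1.21 to -1.02) and -1.04 (-1.07 to -1.02), and the median of the 9 was -0.87, against -0.04 for all genes. At the mix of classes of WT sham the ratios were -0.88, -0.15, -0.63 and -0.52, so none was past 2-fold. *Lyve1* went from -0.66 to 0.45, and *Gas6* from -0.87 to -0.20, in the same step.

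In the *Folr2*-gated cells with less than 5000 CPM of dissociation genes, *Cd163* was 816 CPM in WT sham (50 cells) and 780 CPM in CD3ϵ-/- sham (19 cells), and in those above this limit it was 887 CPM (55 cells) and 255 CPM (20 cells). Within this class the sham groups thus differed in the cells with high dissociation genes, but over all monocytes and macrophages under the limit *Cd163* was still 264 CPM in WT sham and 124 CPM in CD3ϵ-/- sham. After TAC the former cells had 393, 140 and 502 CPM of *Cd163* in WT TAC, CD3ϵ-/- TAC and anti-CD8 TAC, in the same order as the whole class. How far dissociation bears on these levels was not tested.

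Of the 10 members, 2 were past 2-fold between CD3ϵ-/- TAC and WT TAC, both higher, beside 1.12% of the 9048 genes tested. These were *Marco* (log2 ratio 3.23, 3.12 to 3.33) and *Timd4* (2.04, 1.93 to 2.16), and the median of the 10 was 0.09, with -0.01 for all genes. At the mix of classes of WT TAC the ratios were -0.23 and -0.01, and without the *Saa3*-gated class they were 0.19 and 0.25. The *Saa3*-gated class held 0.0744% of the reads of WT TAC, so the mix of WT TAC gives it almost no weight. *Msr1* was 1.45-fold higher (0.54) and 0.16 at the mix of WT TAC, while *Cd163* was lower (-0.75, -0.81 to -0.70) and remained so at that mix (-0.85). *Lyve1* had no stable direction here, with 0.65 in summed reads, -0.91 as the mean over cells and -1.78 without the 5 cells with most *Lyve1* reads in each group.

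*Vsig4*, another receptor of macrophages that binds complement, marked a further difference of the *Folr2*-gated class. It was 715 CPM in the class in CD3ϵ-/- TAC and 125, 0, 18.8 and 44.7 CPM in WT sham, CD3ϵ-/- sham, WT TAC and anti-CD8 TAC. The 9 cells with a *Vsig4* read in CD3ϵ-/- TAC held 7018 of the 8331 *Lyve1* reads of the class, and these came from 3 of the 9. The other groups had 6, 0, 7 and 6 such cells, so these values rest on few cells. In the 49 cells without it *Lyve1* was 148 CPM and *Timd4* 14.4 CPM, beside 512 and 48.8 CPM in the same cells of WT TAC, while *Msr1* was 558 CPM beside 299 CPM.

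For the antibody to CD8, 1 of 9 members was past 2-fold against WT TAC, beside 0.497% of the 9056 genes tested. This was *Timd4* (log2 ratio 1.06, 0.92 to 1.20), at 10.8 CPM against 5.17 CPM, and 5 cells held 65.1% of its reads. The log2 ratio was under 1 as the mean over cells (0.81), with thinned cells (0.98), with gate limits at 0.5 of their value (0.98), over all kept CD45+ cells (0.98), without the *Saa3*-gated class (0.91), without the 5 cells with most reads (0.60) and in cells under 5000 CPM of dissociation genes (0.98), so the call was lost in each. *Cd163* (0.70, 0.66 to 0.74) and *Lyve1* (0.63, 0.58 to 0.68) were 1.62- and 1.55-fold higher, and both ratios were nearly the same at the mix of classes of WT TAC (0.69 and 0.71). The other 6 members with at least 10 CPM differed by 0.10 or less. The median of the 9 was 0.09, with 0.00 for all genes. *Cd163* thus stood on opposite sides of WT TAC in CD3ϵ-/- TAC and in anti-CD8 TAC, which share WT TAC as their reference.

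**Figure D3:**
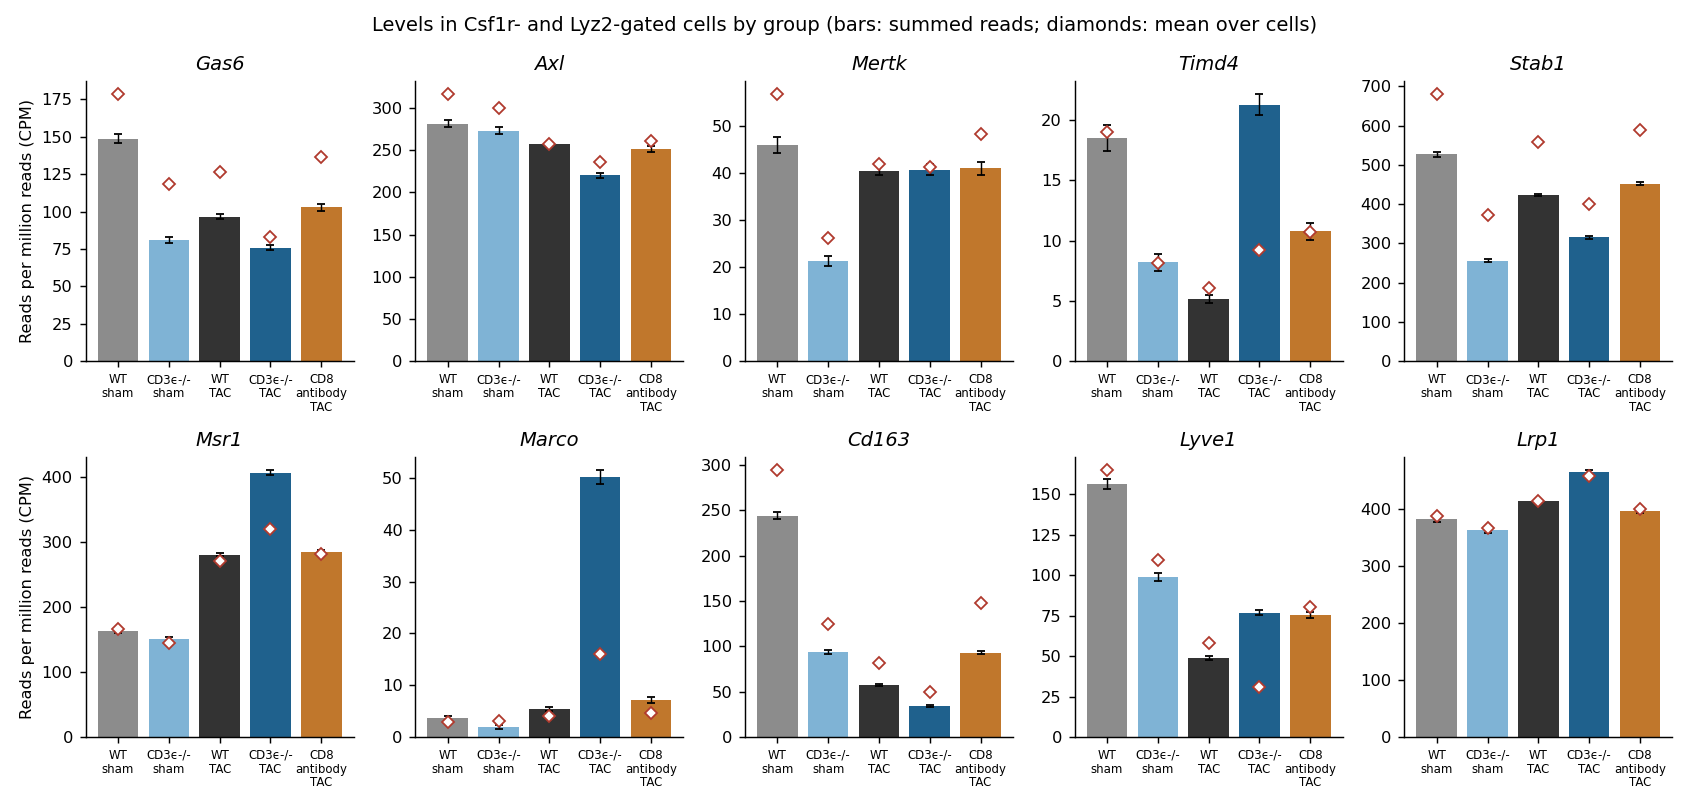
Level of each gene over all *Csf1r*- and *Lyz2*-gated cells (y axis, CPM) in the 5 groups (x axis). Bars are summed reads with 95% counting intervals, and diamonds are means of CPM over cells. *Cd163* is highest in WT sham (244 CPM) and lowest in CD3ϵ-/- TAC (34.1 CPM), and for *Marco*, *Timd4* and *Lyve1* bar and diamond differ in CD3ϵ-/- TAC (50.2 and 16.1, 21.3 and 9.20, 76.8 and 30.9 CPM).

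**Figure D4:**
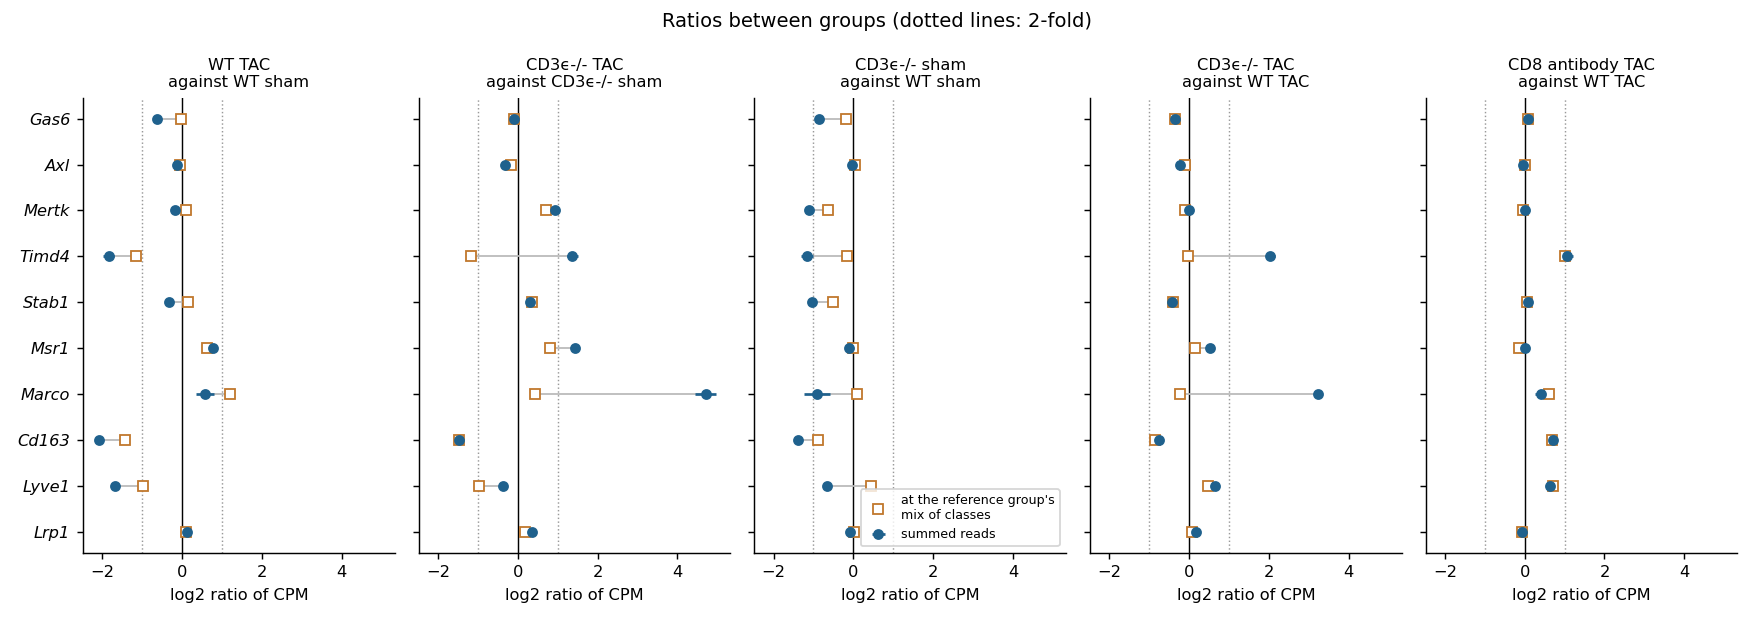
Log2 ratios between groups (x axis) for each gene (y axis) in the 5 comparisons. Circles with 95% counting intervals are ratios of summed reads, squares are ratios at the mix of classes of the reference group, and dotted lines mark 2-fold. *Marco* and *Timd4* move from 3.23 and 2.04 to -0.23 and -0.01 in CD3ϵ-/- TAC against WT TAC, while *Cd163* moves little (-0.75 to -0.85).

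Of 51 other genes of efferocytosis and scavenging, 40 to 42 had at least 10 CPM in a comparison. In WT TAC against WT sham 3 were past 2-fold higher, namely *Thbs1*, a bridging molecule (104 to 354 CPM), *Cd300lf*, a receptor of phosphatidylserine (11.0 to 45.2 CPM), and *Nr1h3*, which encodes the sterol sensor LXRα (5.71 to 12.3 CPM). *Vsig4* was lower (21.1 to 9.54 CPM), which made 4 of 41, beside the 3.61% of all genes. *Thbs1* went with the *Ly6c2*-gated (745 CPM) and *Saa3*-gated (855 CPM) classes, where *Gas6* was low. The median log2 ratio of the list was 0.10, beside 0.03 for all genes.

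The same 3 genes were higher in CD3ϵ-/- TAC than in CD3ϵ-/- sham, and with them *Trem2*, a lipid receptor (121 to 303 CPM), *Olr1*, a receptor of oxidised lipoprotein (5.11 to 39.3 CPM), *Vsig4* (6.60 to 101 CPM) and *Abca1*, which exports cholesterol (54.2 to 123 CPM). *Cd36*, a scavenger receptor of fatty acids, was lower (355 to 139 CPM), which made 8 of 42, beside 5.86% of all genes. In WT TAC against WT sham, *Trem2* and *Cd36* differed in the same directions but were under the limit (log2 ratios 0.98 and -0.90). In CD3ϵ-/- sham against WT sham 3 of 40 were past 2-fold (2.33% of all genes), all lower, namely *Vsig4*, *Colec12* and *Abca1*. Against WT TAC, *Olr1* and *Vsig4* were higher in CD3ϵ-/- TAC, at 39.3 against 6.26 CPM and 101 against 9.54 CPM (2 of 42, beside 1.12% of all genes), and 0 of 40 passed between anti-CD8 TAC and WT TAC (0.497% of all genes). *C1qa*, *C1qb* and *C1qc*, the C1q chains that also bridge to dying cells, were past 2-fold in no comparison.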

How the data were processed

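The authors deposited a matrix of read counts per gene and cell barcode of 1 pooled TAS-Seq library (BD Rhapsody), after error correction and assignment of hashtags, without normalization. The submitters' processing notes name cutadapt 2.10, Bowtie2 2.4.2 and GRCm38, and the counting step is not given in the sources used here. The groups were taken from the hashtag key deposited with the matrix. Of 5363 columns, 8 without hashtag and 40 that the authors called doublets (0.746%) were left out, and cells with at least 500 genes and a mitochondrial share of at most 0.4 were kept, as in the methods of the study. The 5 groups had 95717220, 91899777, 208758777, 136130015 and 109031226 reads.

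Python 3.11.15 with numpy 2.4.6, scipy 1.17.1 and matplotlib 3.10.9 was used. A level is the summed reads of a gene per 1000000 summed reads (CPM), with an exact Poisson interval. Ratios have exact conditional and shares exact Clopper-Pearson intervals, all of 95%. Reads are not independent molecules, so intervals and limits for counts of 0 cover counting error only and are too narrow. Cells were thinned to 30000 reads for shares of cells with a read, and 29, 21, 33, 19 and 17 monocytes and macrophages under this depth were left out of the shares. Genes with at least 10 CPM in 1 of the groups compared and a ratio of 2 or more were counted as past 2-fold. The B cell gate was 500 CPM of *Cd79a* and 100 CPM of *Ms4a1* in cells outside the gates of *Csf1r* and *Lyz2*. The named genes were the members, genes of the gates and label checks, genes of the fixed lists past 2-fold, markers, and for each member the genes of most like profile among 6090 genes with at least 50 CPM in a profile. The members and lists were chosen with earlier results of these data known. The ratio step was run on simulated independent Poisson counts, which checks the calculation only. Such counts lack the clustering of reads in few cells, so the run does not show how the intervals behave here. Near the gates, 203 cells lay within a factor of 2 of the *Folr2* limit, 23 of the *Saa3* limit and 898 of the *Ccr2* limit.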

Additional observations from a re-analysis of the deposited data

Results flagged for a closer look

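For *Timd4* the log2 ratio of TAC to sham was -1.84 in WT and 1.37 in CD3ϵ-/- mice, a gap of 3.21 in opposite directions. The gap was 1.12 for *Mertk* (-0.18 and 0.93) and 0.62 for *Stab1* (-0.31 and 0.30). Each ratio had a counting interval on its own side of 0, but with 1 sample per group the differences were not tested. In *Timd4* the ratio in CD3ϵ-/- mice turned to -0.42 without the *Saa3*-gated class. At the mix of classes of each sham group, the ratios in WT and CD3ϵ-/- mice had the same sign for all 3 genes. They were -1.17 and -1.18 for *Timd4*, 0.11 and 0.70 for *Mertk*, and 0.14 and 0.36 for *Stab1*. The sham mixes give the *Saa3*-gated class no weight. Over all kept CD45+ cells the ratio of *Mertk* in WT mice was 0.05. Of the 10 members, 9 also had reads in the 48 columns left out for lack of a hashtag or as doublets.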

How the results depend on the processing

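The log2 ratio kept its sign under up to 11 alternatives in 34 of 50 ratios, and in 13 of the 14 past 2-fold. Only *Timd4* in CD3ϵ-/- TAC against CD3ϵ-/- sham, of these 14, turned, to -0.42 without the *Saa3*-gated class. The count of members past 2-fold was 5 at 1.5-fold in WT TAC against WT sham (3 at 2-fold). For CD3ϵ-/- TAC against CD3ϵ-/- sham it went from 4 to 2 without the *Saa3*-gated class and to 1 at 3-fold. For CD3ϵ-/- sham against WT sham it went from 4 to 2 with thinned cells, to 2 over all kept CD45+ cells and to 0 at 3-fold. For CD3ϵ-/- TAC against WT TAC it went from 2 to 1 as the mean over cells, to 1 with thinned cells, to 0 without the *Saa3*-gated class and to 4 at 1.5-fold. For anti-CD8 TAC the count of 1 became 0 as the mean over cells, with thinned cells, with gate limits at 0.5 of their value, over all kept CD45+ cells, without the *Saa3*-gated class, at 3-fold, without the 5 cells with most reads and in cells under 5000 CPM of dissociation genes, and 3 at 1.5-fold. The 5 members highest in the *Folr2*-gated class became 8 with gate limits doubled and 8 with the *Folr2* gate first, since the *Saa3*-gated class then had under 20 cells in each group. With limits doubled, the share of the *Folr2*-gated class in the WT, CD3ϵ-/- and anti-CD8 groups after TAC was 7.85%, 4.91% and 8.07%. The alternatives on dissociation genes, on the 5 cells with most reads and on a *Saa3* limit of 100 CPM were chosen after seeing the data. No paired analysis was possible because each group was 1 hashtag. The main limits are the lack of replicates, reads that are not molecules, few cells with *Marco*, *Timd4* or *Lyve1*, and gates on RNA levels.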
